A study of Sus scrofa domesticus with 4 samples.

Results

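AMY2, the pig gene for an alpha-amylase, was measured by 23 of the 43603 probes of a two-colour oligonucleotide array. The probes were those whose accession belongs to AMY2 in the RefSeq gene table of Sscrofa11.1, and all 23 carried the same accession. AMY2 was selected on its fitted treated over control ratio in these arrays, so that ratio is described below and not tested. Of 2459 named genes with a probe on the array, AMY2 was 1, and all 23 of its probes were well above background in both RNAs on 4 of 4 arrays. All 23 therefore entered the fit, and none carried an outlier or uneven-background flag.

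Each of 4 arrays carried RNA of anterior pituitary cells cultured with recombinant human adiponectin at 10 µg/ml for 24 h and RNA of control cells cultured without it. The cells came from mature Large White × Polish Landrace gilts of 7 to 8 months and 120 to 130 kg, killed in the mid-luteal phase, between days 10 and 12 after oestrus. A further entry in the labels instead describes these days as pregnancy. All cells of both groups were dispersed with trypsin, precultured for 48 h with horse and calf serum, and then held in serum-free medium with bacitracin. By the channel labels, treated RNA was red (Cy5) and control RNA green (Cy3) on arrays 1 and 3, and the dyes were exchanged on arrays 2 and 4. No label ties an array to a gilt, so the spread between arrays may be technical. The cultures were mixed pituitary cells, and fewer cells of a type cannot be told apart from less RNA per cell.

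Alpha-amylases are secreted enzymes that cut the inner bonds of starch and glycogen chains into short sugars. They are known as digestive enzymes of the acinar cells of the pancreas and of the salivary glands. In humans the amylase genes form a cluster of close copies, so probes to such genes may not separate one copy from another. Adiponectin is a hormone released by fat cells that acts on glucose and lipid metabolism in many tissues.

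Between 25174 and 29845 probes per channel and array exceeded background clearly, and 25912 probes entered the tests. Over these, no treated over control ratio passed an adjusted p of 0.05 (0% of the tested probes, limma with Benjamini-Hochberg adjustment), while 717 had an unadjusted p under 0.05. Without array 2 the number past the threshold was 725, without array 4 it was 832, and without array 3 it was 1. The pituitary hormone genes were all detected where they had a usable value, with PRL (prolactin) at the 99.5 percentile of brightness, GH1 (growth hormone) at 99.2, POMC, the precursor of corticotropin, at 94.2, and the gonadotropin subunits LHB and FSHB at 85.2 and 68.4. TSHB, the thyrotropin subunit, was dimmer, at 22.1. The probe of CGA, the common hormone alpha subunit, was well above background in both RNAs on 4 of 4 arrays. Its spots were dropped for their flags, so CGA had no usable value.

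AMY2 lay mostly above the middle of the brightness range in these pituitary cultures. Brightness, the mean log2 intensity over both RNAs and 4 arrays, was 8.05 to 11.57 over the 23 probes, with a median of 10.4. This placed the probes between the 46.2 and the 82.8 percentile of all tested probes, with a median of 73.4. Between arrays the order of the probes hardly moved, with a correlation of brightness of 0.991 to 0.993 over the 23 probes. The probes share an accession and the arrays, and were not placed on a transcript. Brightness differs between probes of 1 transcript and is not an amount of RNA.

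The brightest probe, A_72_P762901, had normalised intensities of 3317, 2377, 4330 and 3432 arbitrary units in treated cells and 2738, 2197, 3660 and 2794 in control cells on arrays 1 to 4. The treated RNA was the brighter one on each array. The dimmest probe, A_72_P738932, had 280, 182, 354 and 315 in treated cells and 252, 200, 323 and 268 in control cells. Its treated RNA was brighter on arrays 1, 3 and 4 and dimmer on array 2. The probe of the highest fitted ratio, A_72_P766266, had 1423, 943, 1930 and 1474 in treated cells, against 1046, 870, 1542 and 1233 in control cells, and was brighter in treated cells on every array. The probe in the middle of the brightness order, A_72_P721858, had 1194, 1144, 1640 and 1847 in treated cells and 1378, 876, 1717 and 1291 in control cells. There the treated RNA was brighter on arrays 2 and 4, where it was green, and dimmer on arrays 1 and 3, where it was red.

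**Figure D1:**
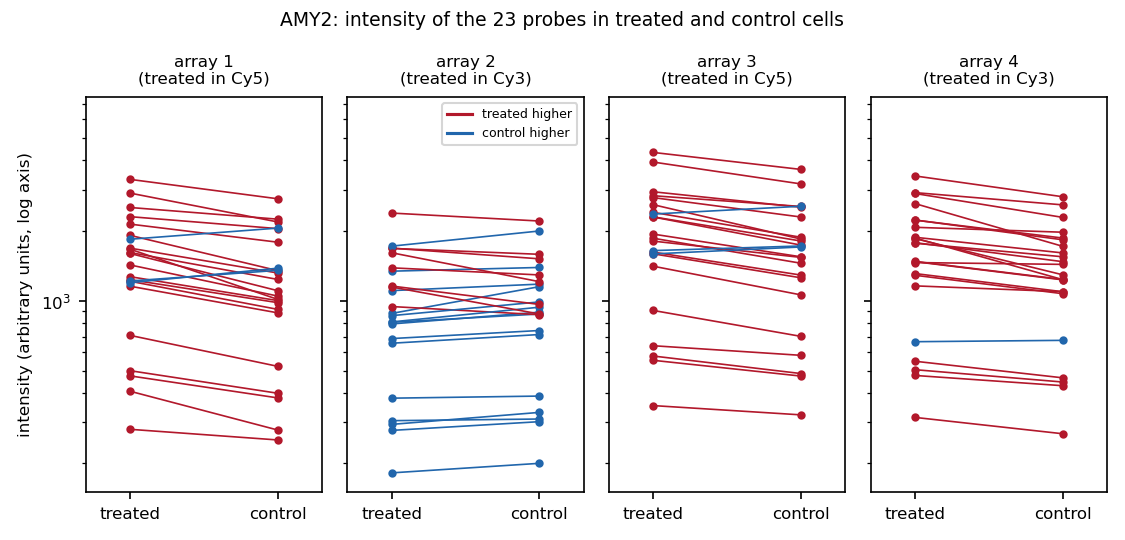
Normalised intensity (arbitrary units, log axis) of the 23 AMY2 probes in treated and control cells on each of 4 arrays, with a line joining the 2 values of a probe. The treated value was the higher one for 20, 8, 20 and 22 of 23 probes on arrays 1 to 4.

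Over all 23 probes the geometric mean intensity was 1272, 831, 1662 and 1408 in treated cells on arrays 1 to 4, against 1033, 845, 1403 and 1184 in control cells. Treated cells were thus higher on arrays 1, 3 and 4 and close to control cells on array 2. The mean log2 ratio of treated over control was 0.30 ± 0.23 on array 1, -0.02 ± 0.20 on array 2, 0.24 ± 0.16 on array 3 and 0.25 ± 0.16 on array 4 (SD over 23 probes). In all tested probes the median ratio was between -0.01 and 0.01 on each array. Of the 92 AMY2 values on single arrays, 70 were above 0. On array 1, 20 probes were above 0, on array 2 there were 8, on array 3 there were 20 and on array 4 there were 22.

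Signs on single arrays fell into a few patterns, which depended on the normalization. In the scanner software's log ratio 23, 11, 23 and 23 of the 23 probes were above 0 on arrays 1 to 4. The patterns given here are those after loess normalization within arrays. In 5 probes the ratio was above 0 on 4 of 4 arrays, and in 14 it was above 0 on 3, with array 2 the one below in each of the 14. The other 4 probes were above 0 on 2 arrays. Values below are log2 ratios of treated over control on arrays 1 to 4 after loess, unless another ratio is named. They follow the order of the spots' rows on the array, which has 532 rows and 85 columns.

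After loess, the 6 AMY2 probes in rows 30 to 85 were highest on the 2 arrays with treated RNA in red. A_72_P732520 in row 30, of brightness 10.32, had ratios of 0.53, -0.17, 0.36 and 0.03. A_72_P728909 in row 39, of brightness 9.95, had 0.38, -0.12, 0.41 and 0.08. A_72_P745105 in row 49, of brightness 10.78, had 0.50, -0.05, 0.49 and 0.07. In these 3 probes the green-labelled treated RNA on array 4 stood within 0.08 of the control after loess. A_72_P749265 in row 51, of brightness 8.73, had ratios of 0.31, -0.17, 0.23 and 0.18. A_72_P725373 in row 59, of brightness 10.51, had 0.72, -0.38, 0.40 and 0.22, the widest range of the 23 probes. A_72_P730633 in row 85, of brightness 8.61, had 0.55, -0.13, 0.25 and 0.15. After loess the mean of the 6 was 0.50, -0.17, 0.36 and 0.12 on arrays 1 to 4, with array 2 below 0 in every one. In the scanner software's ratio the 6, in row order, had 0.24, 0.23, 0.35, 0.15, 0.30 and 0.18 on array 3. On array 4 they had 0.25, 0.26, 0.19, 0.26, 0.28 and 0.28, so the order of arrays 3 and 4 depended on the normalization.

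The 10 AMY2 probes in rows 174 to 302 varied less between arrays. A_72_P736298 in row 174, of brightness 11.03, had ratios of 0.17, 0.08, 0.15 and 0.26, and the brightest probe in the same row had 0.28, 0.11, 0.24 and 0.30. A_72_P766266 in row 229, of brightness 10.31, had 0.44, 0.12, 0.32 and 0.26. A_72_P756727 in row 261, of brightness 10.90, had 0.26, 0.10, 0.28 and 0.28. With A_72_P147006 in row 302, of brightness 11.15 and ratios of 0.17, 0.15, 0.22 and 0.34, these were the 5 probes above 0 on every array. The other probes of these rows were below 0 on array 2. A_72_P730788 in row 228, of brightness 10.18, had 0.33, -0.12, 0.33 and 0.26. A_72_P763090 in row 244, of brightness 10.50, had 0.38, -0.19, 0.34 and 0.19. A_72_P748950 in row 250, of brightness 9.22, had 0.44, -0.03, 0.37 and -0.02, and was the one probe below 0 on array 4. A_72_P739824 in row 272, of brightness 8.83, had 0.32, -0.02, 0.14 and 0.24, and A_72_P725083 in row 278, of brightness 10.05, had 0.40, -0.11, 0.34 and 0.26. The mean of the 10 was 0.32, 0.01, 0.27 and 0.24.

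The 4 AMY2 probes in rows 360 to 455 again had only array 2 below 0. A_72_P724779 in row 360, of brightness 11.34, had ratios of 0.41, -0.22, 0.31 and 0.18. A_72_P731658 in row 401, of brightness 10.21, had 0.34, -0.21, 0.23 and 0.26. A_72_P725158 in row 409, of brightness 10.60, had 0.35, -0.09, 0.35 and 0.27. After loess the dimmest probe, in row 455, had smaller ratios than these 3 on arrays 1 and 3, at 0.15, -0.14, 0.13 and 0.24. In the scanner software's ratio it had 0.38, -0.35, 0.32 and 0.18. There these 3 had 0.49, 0.44 and 0.43 on array 1 and 0.36, 0.31 and 0.40 on array 3. The mean of the 4 after loess was 0.31, -0.16, 0.26 and 0.24.

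The 3 AMY2 probes in rows 468 to 483 were instead higher on the 2 arrays with treated RNA in green. A_72_P718943 in row 468, of brightness 10.92, had ratios of -0.16, 0.41, -0.11 and 0.61. A_72_P722063 in row 473, of brightness 10.40, had -0.15, 0.26, -0.10 and 0.59. A_72_P721858 in row 483, of brightness 10.40, had -0.21, 0.38, -0.07 and 0.52. These were the lowest 3 of the 23 values on arrays 1 and 3 and the highest 3 on arrays 2 and 4, with no overlap with the other 20. Their mean was -0.17, 0.35, -0.09 and 0.57 on arrays 1 to 4, against 0.37, -0.08, 0.30 and 0.20 for the other 20. This pair of sets was formed after the values were seen and carries no test.

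**Figure D2:**
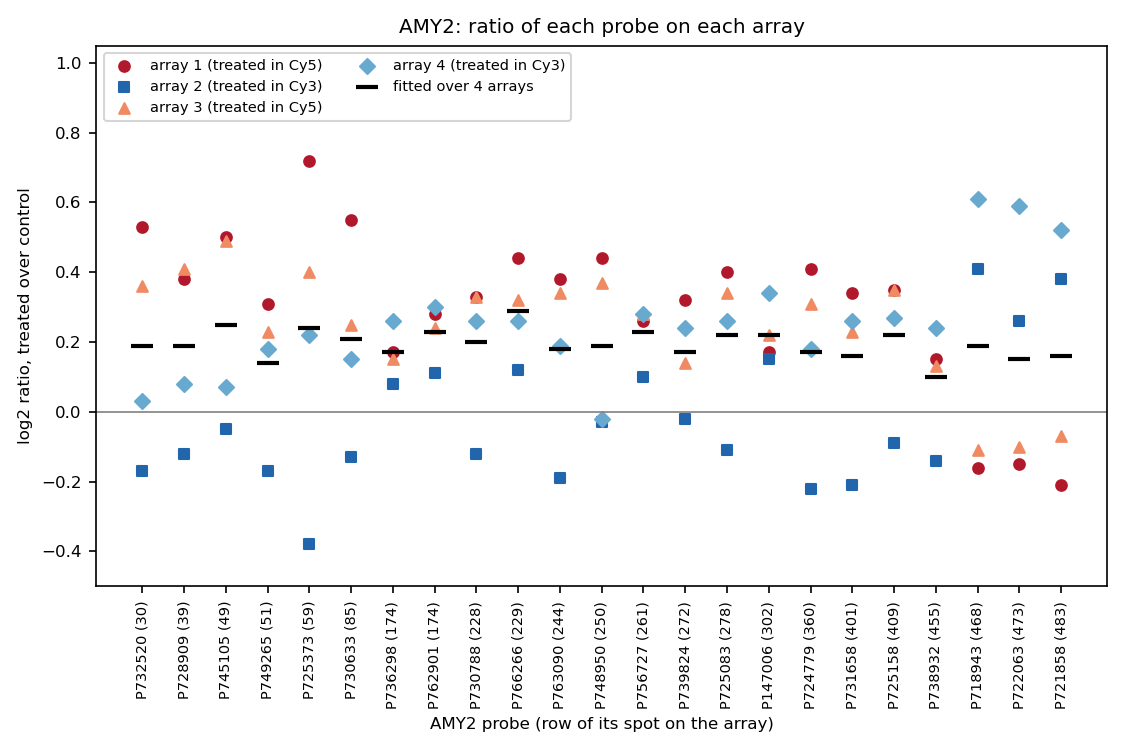
Log2 ratio of treated over control (y axis) of each AMY2 probe on each of 4 arrays, with the fitted ratio as a black bar and the probes ordered by the row of their spot (x axis). The 3 probes at the right, in rows 468 to 483, were below 0 on arrays 1 and 3 and highest on arrays 2 and 4, while their fitted ratios of 0.15 to 0.19 lay among those of the other probes.

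The linear model separates a ratio of treated over control from a dye term, the red over green difference that does not follow the treatment. The fitted AMY2 ratio averaged 0.19 on the log2 scale (1.14-fold), with a standard error of 0.07 from the spread of the 4 array means. The residual SD of those array means was 0.14. The 23 fitted ratios lay between 0.10 (A_72_P738932) and 0.29 (A_72_P766266), with an SD over probes of 0.042, against a median standard error of 0.07 for a single probe. The spread between probes was thus below the error of a single probe. That error comes from differences between the 4 arrays, which the 23 probes share, so the comparison does not measure how well the probes agree. All 23 were above 0, where 50.7% of all tested probes were above 0. Since the gene was selected on this ratio, nothing is read from that count. Among all tested probes, the AMY2 ratios lay between the 92.4 and the 99.9 percentile, with a median of 99.3. The brightest probe had a fitted ratio of 0.23 and the dimmest, A_72_P738932, the lowest one. Across the 23 probes the correlation of brightness with the fitted ratio was 0.48 (Pearson) and 0.34 (Spearman).

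The dye term, which was not used to select the gene, differed far more between the AMY2 probes. It averaged 0.08 with an SD over probes of 0.173, and ran from -0.32 for A_72_P718943 to 0.32 for A_72_P725373. Two-sided limma tests adjusted over all tested probes called 2 of the 23 AMY2 probes, both higher in green, against 6.21% of all tested probes. These were A_72_P718943, with a dye term of -0.32 (95% interval -0.48 to -0.17, adjusted p = 0.0323), and A_72_P721858, with -0.29 (-0.45 to -0.14, adjusted p = 0.0408). The neighbouring A_72_P722063 had -0.28 (-0.45 to -0.11) and did not pass, with an adjusted p of 0.0644. The largest positive term, 0.32 for A_72_P725373, had an interval of 0.08 to 0.56 and an adjusted p of 0.103. The 8.7% of AMY2 probes called was close to the share over all tested probes. Without array 1 or without array 3, none of the 23 was called by limma, where 0.222% and 0.36% of all tested probes were. Without array 2, 6 AMY2 probes were called, or 26.1%, against 24.3% of all tested probes. Without array 4, 15 were called, or 65.2%, against 22.5%. In each fit without an array, 1 array stands alone in its dye orientation, and the 23 probes share that array. Their calls are therefore not separate, and nothing is read from these counts. The 2 calls made with all 4 arrays were lost under several other ways of processing the arrays.

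Over the AMY2 probes the dye term tended to be lower in later rows of the array. The mean term was 0.23 in rows 30 to 85, 0.09 in rows 174 to 302, 0.13 in rows 360 to 455 and -0.30 in rows 468 to 483. The mean fitted ratio of treated over control was 0.20, 0.21, 0.16 and 0.17 in the same places. The last place holds just the 3 probes of lowest dye term, a set formed after the values were seen, so the step to it carries no test. The nearest AMY2 probe outside it, in row 455, had a dye term of 0.05. The correlation of row with the dye term was -0.70 (Pearson) and -0.65 (Spearman) over the 23 probes, which share the 4 arrays, and -0.48 by both measures without the 3 probes of rows 468 to 483. Row and the treated over control ratio had a correlation of -0.37 (Pearson).

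A fall of the dye term along the rows was also seen in the other probes of the array. Their median dye term was 0.114 in rows 1 to 67 and 0.105 in rows 68 to 134, and it was lower in each later band, down to -0.12 in rows 403 to 469 and -0.183 in rows 470 to 532. Their median treated over control ratio stayed between -0.017 and 0.012 in all 8 bands. The AMY2 means covered a wider span, and did not fall from rows 174 to 302 (0.09) to rows 360 to 455 (0.13), where the medians of the neighbouring probes were -0.17 to 0.00. Within 15 rows and 15 columns of an AMY2 spot lay 318 to 583 other tested probes. All 23 AMY2 ratios of treated over control were above the median of their neighbours, which was -0.03 to 0.04, by 0.12 to 0.27. AMY2 was selected on this ratio, so that count restates the selection and nothing is read from it. Of the AMY2 dye terms, 17 of 23 were above their neighbours' median. The 3 terms in rows 468 to 483 were below neighbouring medians of -0.19 to -0.18, but within the middle 90% of their neighbours, as were 5 of 6 in rows 30 to 85 and all of those in rows 174 to 455. What makes the dye term vary over the array was not tested.

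**Figure D3:**
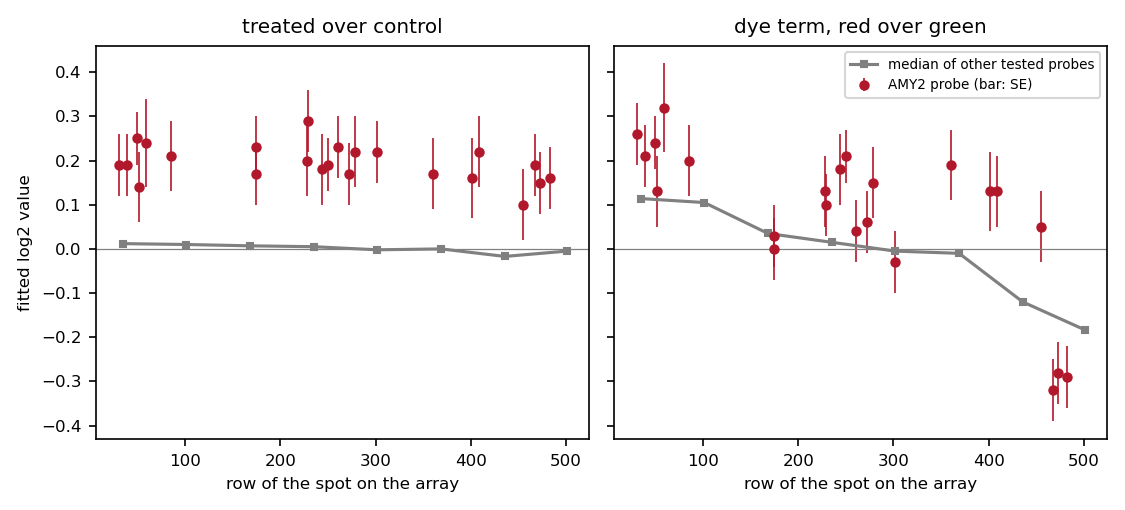
Fitted log2 ratio of treated over control (left) and fitted dye term (right) of the 23 AMY2 probes against the row of their spot, with the standard error as a bar and the median of the other tested probes in 8 bands of rows as a grey line. The ratio stayed between 0.10 and 0.29 in every row, while the dye term had a mean of 0.23 in rows 30 to 85 and -0.30 in rows 468 to 483.

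The signs of the 3 probes of rows 468 to 483 on single arrays depended on the normalization. After the local median of each array's surface was removed, an alternative chosen after the data were seen, their mean ratio was -0.05, 0.29, 0.02 and 0.49 on arrays 1 to 4. In the log ratio of the scanner software it was 0.07, 0.19, 0.10 and 0.42, and each of the 3 probes was above 0 on every array. The other 20 AMY2 probes had 0.35, -0.07, 0.28 and 0.21 with the local median removed and 0.35, -0.02, 0.27 and 0.25 in the scanner software's ratio. The SD of the dye term over the 23 probes was 0.133 and 0.107 under these settings, against 0.173 with loess alone, and neither setting called an AMY2 probe in the dye term, where 1.11% and 0.123% of all tested probes were called. The SD of the fitted treated over control ratio was 0.039 and 0.032. Array 2 stayed near 0 for AMY2 as a whole, at -0.02 with the local median removed and 0.00 in the scanner software's ratio.

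**Figure D4:**
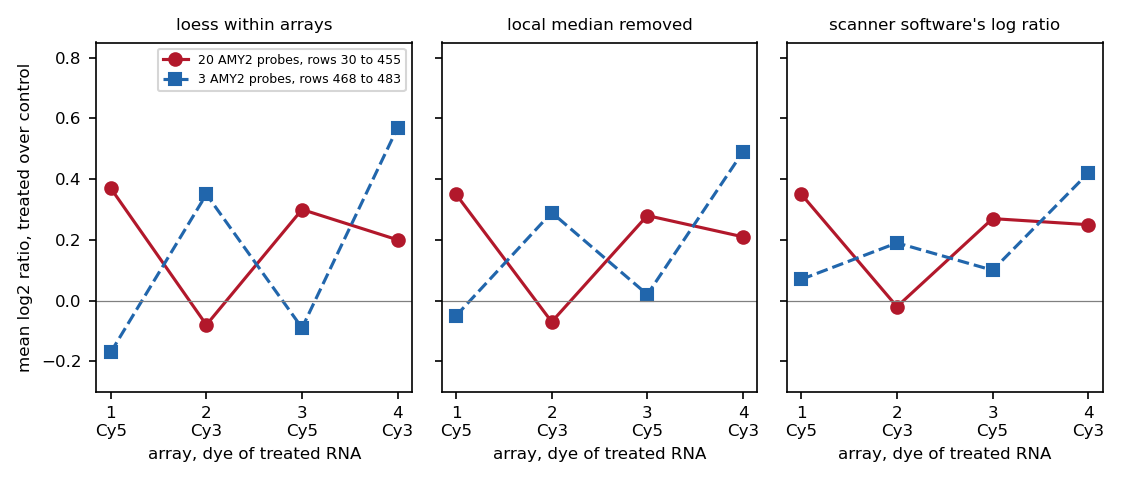
Mean log2 ratio of treated over control (y axis) on arrays 1 to 4 (x axis, with the dye of the treated RNA) for the 20 AMY2 probes of rows 30 to 455 and the 3 of rows 468 to 483, under 3 ways of processing. On array 1 the 3 probes had -0.17 after loess, -0.05 with the local median removed and 0.07 in the scanner software's ratio.

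The wording of the labelling protocol puts the treated RNA in Cy5 throughout, which differs from the channel labels. Read that way, the dye term and the treatment cannot be told apart, and the AMY2 ratios would be the red over green values, with a mean of 0.08 and 18 of 23 probes above 0. The range would then be -0.32 to 0.32, and the SD over the AMY2 probes 0.173.

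AMY2 can be set beside the 26 other named genes with at least 10 tested probes. Its mean fitted ratio of 0.19 was second to that of SELENOP, a secreted selenium carrier, at 0.22 over 10 probes, and the 26 means ran from -0.14 (PPP1CB, a catalytic subunit of protein phosphatase) to 0.22 with a median of -0.01. The SELENOP mean rested on array 2, with array means of -0.08, 0.90, 0.02 and 0.05. Without array 2 SELENOP had 0.01 and AMY2 0.26, while without array 4 SELENOP had 0.44 and AMY2 0.12. Since AMY2 was selected on this ratio, nothing is read from its rank. The AMY2 probes did not spread more than those of other genes: the SD of the ratio was 0.026 to 0.105 in the 26, with a median of 0.042, the same as in AMY2. The SD of the dye term was 0.072 to 0.247 in the 26 genes, with a median of 0.155, and 10 of them exceeded the AMY2 value of 0.173. In 26 of 26 genes the dye term varied more between probes than the treated over control ratio. Probes of 1 sign throughout, as in AMY2, were seen in 7 of the 26 genes, 1 above 0 and 6 below. The 6 included CHGB, a granule protein of hormone-secreting cells, with a mean of -0.11 over 13 probes.

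**Figure D5:**
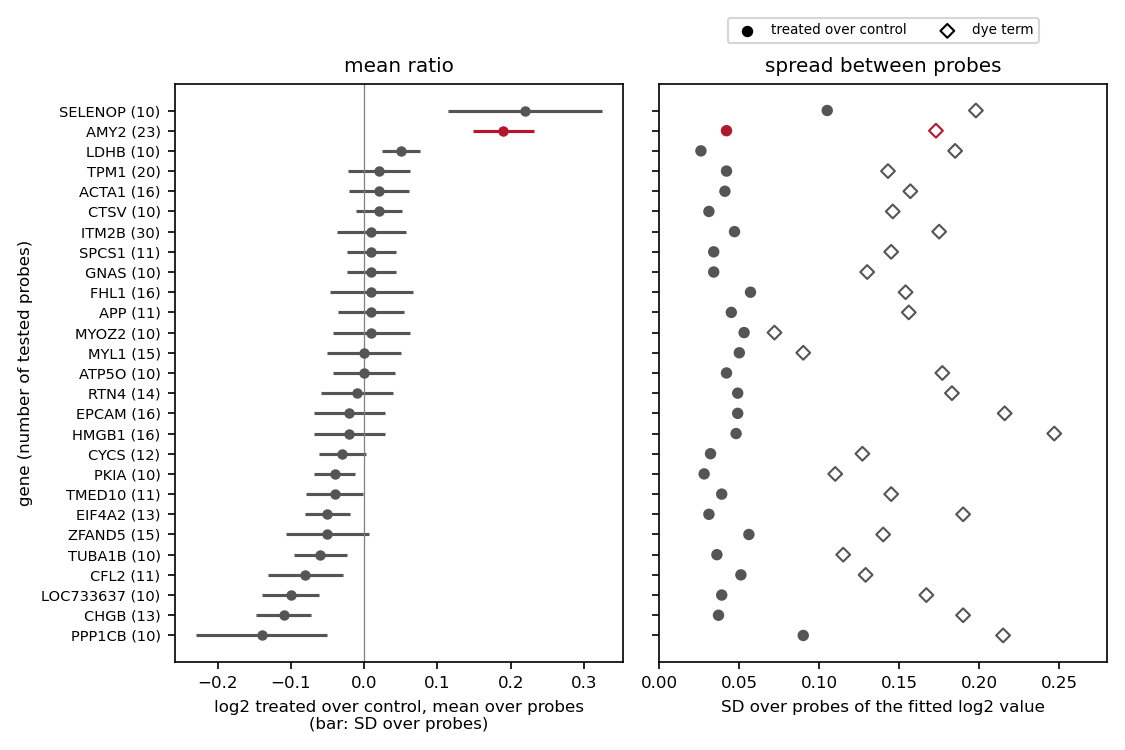
Mean over probes of the fitted log2 ratio of treated over control with its SD over probes as a bar (left), and the SD over probes of the ratio and of the dye term (right), for AMY2 and the 26 other named genes with at least 10 tested probes. AMY2 (red) had a mean of 0.19, second to SELENOP at 0.22, and its dye term had an SD of 0.173 where its ratio had 0.042.

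The named genes whose 4 array ratios lay nearest to the AMY2 means, by Euclidean distance over 4 arrays among 1907 genes, were EFNA1, FUT2, HPS1, ZFYVE27 and CRP. EFNA1, an ephrin ligand, was the nearest at a distance of 0.16, with ratios of 0.28, -0.08, 0.15 and 0.13. FUT2, a fucosyltransferase, followed at 0.18, with 0.22, 0.01, 0.09 and 0.27. HPS1, which takes part in the making of lysosome-related organelles, and ZFYVE27 were both at 0.19, and CRP, the C-reactive protein, at 0.20. The median distance over all genes was 0.57. Each of the 5 had a fitted ratio below that of AMY2, at 0.10 to 0.15.

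The tested genes of starch, glycogen and sugar metabolism lay between -0.07 and 0.01 by their brightest probes, and no test set them against AMY2. Of 42 listed genes 8 had a named probe and 7 were tested. Of these, 1 was above 0 and 6 below, where 53.6% of the 1956 tested genes were above 0. Their median was -0.02, against 0.006 over the 1956 genes. None passed the limma test. PYGL, the liver glycogen phosphorylase, had a ratio of -0.06, UGP2, which makes UDP-glucose, had -0.02 and GSK3B, a kinase that restrains glycogen synthase, had -0.02. HK2, a hexokinase, had -0.07 and G6PC, the catalytic subunit of glucose-6-phosphatase, had -0.02. The glucose transporters SLC2A4 and SLC5A1 had -0.02 and 0.01, and SLC2A2 was not well above background. Other probes of both transporters ran higher, with 3 tested probes of SLC5A1 between 0.01 and 0.19 and 3 of SLC2A4 between -0.02 and 0.08. The other amylase and disaccharidase genes on the list had no named probe and were not analysed here.

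Of 7 exocrine pancreas markers with a named probe, 3 did not reach the filter on background and 4 were tested. Of 44 listed genes of exocrine pancreas and salivary gland, 18 had a named probe and 14 were tested. Of these, 10 were above 0 and 4 below, where 53.6% of the 1956 tested genes were above 0. Their median ratio was 0.05, against 0.006 over the 1956 genes, and none passed the limma test. The highest was LTF, lactoferrin, at 0.15, and the lowest RNASE1, a pancreatic ribonuclease, at -0.10. This order depended on the processing: in the scanner software's ratio CPB1, a carboxypeptidase, was the higher one at 0.93, with LTF at 0.20 and RNASE1 at -0.30. PNLIP, pancreatic lipase, had 7 probes, each well above background on at most 1 array in either RNA. The probes of its relative PNLIPRP1 and of CELA1, an elastase, were well above background on none, and that of PLA2G1B, pancreatic phospholipase, on 2 arrays in treated and 1 in control RNA. CPA1, another carboxypeptidase, had a ratio of 0.11 at the 14.4 percentile of brightness, and CPB1 had 0.09 at the 1.2 percentile, where 0.20 was found with normexp at offset 0. CLPS, the cofactor of lipase, had 0.08 at the 49 percentile, and its other tested probe had 0.01. CELA2A, another elastase, had 0.06 at the 24.2 percentile, and its other tested probe had 0.01. Of the salivary markers, SAL1, the salivary lipocalin, had -0.05, MUC19, a mucin, had -0.09 and AQP5, a water channel, had 0.02. The single tested macrophage gene, CD14, had 0.01, and HBE1, a globin, had 0.04. Whether cells of these kinds contribute to the AMY2 signal was not tested.

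Of the 8 protein-coding genes nearest to AMY2 in the gene table, COL11A1, a collagen gene, was the single one with a named probe on the array. That probe was not tested, so no neighbour of AMY2 gives a ratio to set beside it.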

How the data were processed

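Per the file headers, the arrays (design 026440) were quantified with Agilent Feature Extraction 10.7.3.1 and shared 1 slide. Each deposited scanner file gives, per spot and channel, a median intensity and its local background on a linear scale, flags, and a red over green log10 ratio. The log2 values of the deposited series matrix lay within 0.01 of the scanner's ratio of processed signals for 100% of single-spot probes. For this the sign was turned for arrays 2 and 4, and probes on several spots were not compared. The matrix was not centred (column medians -0.04, 0.08, 0.04 and -0.05).

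Intensities were background-corrected by normexp with an offset of 50. Spots flagged for uneven background (939 to 1350 of 43803 per array) or as outliers (29 to 45) were dropped. Loess was applied within arrays, ignoring control spots, and spots of 1 probe were averaged. Tested probes had values on at least 3 of 4 arrays and stood well above background in treated or control RNA on at least 3. A linear model with a dye and a treatment term was fitted in limma 3.58.1 (R 4.3.3) with eBayes moderation, and two-sided p-values were adjusted by Benjamini-Hochberg at 0.05. The model was tested on simulated data.

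Names came from RefSeq accessions without versions, with 5578 of 43603 probes matched and 38025 unnamed. A listed gene is represented by its brightest tested probe, while AMY2 and genes of at least 10 tested probes are averaged. All AMY2 probes and all tested genes of both lists and the marker sets could be named, and the 5 genes nearest to AMY2. AMY2, the lists and the settings were chosen with earlier results of these data known. The number of arrays limits the precision. No probe sequence was used here. Other settings, among them each array left out, are given in the closing section.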

Additional observations from a re-analysis of the deposited data

Results flagged for a closer look

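In 45 sets of 4 array values (23 AMY2 probes, their mean and the tested genes of both lists), 3 had 1 array far from the others by Dixon's test, where chance gives about 1 in 20, or 2.2. In each of the 3 the array was array 2. AMY2 probe A_72_P730788 had a log2 ratio of treated over control of -0.12 on array 2, against 0.26 to 0.33 on the others. AMY2 probe A_72_P756727 had 0.10 on array 2, against 0.26 to 0.28. UGP2 had 0.25 on array 2, against -0.13 to -0.07. The mean AMY2 ratio was 0.26 without array 2 and 0.12 without array 4.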

How the results depend on the processing

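The mean AMY2 ratio of 0.19 was 0.19 to 0.25 with other background corrections, the deposited matrix, other normalizations, other filters or the brightest probe. It was 0.12 to 0.26 when each array was left out, lowest without array 4 and highest without array 2. It was 0.08 with treated RNA as Cy5 on every array, where 18 of 23 probes were above 0, the SD over probes was 0.173 and 2331 probes passed the test. Leaving out an array gave 0 to 832 tested probes past the threshold, with 725 without array 2 and 832 without array 4. It gave 0 to 15 AMY2 probes called in the dye term, where the lone array of a dye orientation is assumed to vary like the others. In place of 2 AMY2 probes and 6.21% of all tested probes, the dye term called 4 and 15.1% with separate channels, 3 and 5.32% with no filter, and 1 and 5.66% without background subtraction. It called 0 with normexp at offset 0, normexp on all spots, the scanner software's ratio, the matrix, median centring, the local median removed or the 3 probes of rows 468 to 483 left out, where between 0% (median centring) and 6.21% of all tested probes were called. The last 2 settings were chosen after seeing the data. The median brightness percentile of 73.4 was 69.9 with a strict filter and 83.7 without a filter. Over 391 values of single AMY2 probes under these settings, 380 stayed within the spread between arrays, and 8 of the 11 that did not came from treated RNA as Cy5 on every array. Of 352 values of the listed genes, 18 moved beyond it, among them CPB1 (0.93 in the scanner software's ratio and the matrix, against 0.09), RNASE1 (-0.30, against -0.10) and AQP5 (0.13, against 0.02). The causes were not tested. Treated and control RNA were paired by array in every fit but that of separate channels, which uses the correlation of both channels within a spot.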
